A study of Mus musculus with 6 samples.

Results

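The 10 genes described here, *Tcirg1*, *Acp5*, *Car2*, *Clcn7*, *Ostm1*, *Slc4a2*, *Plekhm1*, *Snx10*, *Rab7* and *Syt7*, encode proteins with which an osteoclast acidifies the space under it and builds its ruffled border. They were taken by name from a table of 57180 genes, and all 10 were in it. Of these, 9 passed the filter on low counts and were tested among 13428 genes. *Syt7* did not pass, with 3, 1 and 0 counts in WT and 0, 1 and 2 counts in KO.

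RNA was sequenced from mouse osteoclast precursors (OCPs; C57BL/6 is the strain of the study's animal model), which are macrophages grown from bone marrow and then primed towards the osteoclast fate. There were 3 wild-type (WT) libraries and 3 libraries from mice that lack the long noncoding RNA lincRNA-EPS (lincRNA-EPS-/-, KO). Cells of both genotypes had M-CSF, a survival factor of macrophages, at 40 ng/mL for 24 h and then RANKL, the cytokine that starts osteoclast differentiation, at 40 ng/mL for 48 h. The deletion is not described as limited to a cell type, and the age and sex of the marrow donors were not given in the sources used here. The paper states that its in vitro experiments had at least 3 biological replicates, each a single mouse or a separate culture. The labels do not say whether the libraries of a genotype came from separate mice. The p-values therefore measure the spread between these libraries, which may be technical. The comparison asks how these genes stood in KO OCPs before any later stimulus.

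An osteoclast dissolves bone mineral with hydrochloric acid. Carbonic anhydrase makes protons and bicarbonate in the cytosol, an exchanger on the far side of the cell trades the bicarbonate for chloride, and a proton pump with a chloride transporter beside it moves both ions across the ruffled border. That border forms when lysosomes are carried to the bone-facing membrane and fuse with it, which takes Rab GTPases, their adaptors and sorting proteins. Loss of several of these genes is known to cause osteopetrosis, a disease of dense bone that is not resorbed.

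The totals were 17757351 to 19998611 counts per library. The targeted transcript, listed as *Ttc39aos1*, had 20, 37 and 41 counts in WT and 0 counts in each KO library. The log2 fold changes of all genes followed the GC content of their transcripts (Pearson's r = -0.51 across 13176 genes, which are not independent replicates), and each library was scored for how far it deviated from the gene means along GC content. The strongest deviations were in KO replicate 3 (r = -0.61) and WT replicate 2 (r = 0.57). Because of this, the values of the 9 genes tested are given as scaled by TMM in CPM (counts scaled to equal library totals) and again after each library's GC trend was removed, which brought r to -0.01. Of the marker lists, all 10 macrophage genes were tested, with a summed level of 16965 to 18111 CPM in WT and 15258 to 18109 CPM in KO, and 4 of them were lower at an unadjusted p under 0.05 in edgeR's test. At that p 13.0% of all genes tested were higher and 13.2% lower, shares that stand beside each list here. The 10 osteoclast precursor genes, a list that holds *Dcstamp*, *Ctsk* and the pump subunit *Atp6v0d2*, summed to 4255 to 4673 CPM in WT and 5803 to 6009 CPM in KO, and 5 of them were higher and none lower at that p. The rise was not shared by all 10, as *Tnfrsf11a*, *Itgb3* and *Nfatc1* had log2 fold changes of -0.009, -0.012 and 0.033. The 11 neutrophil genes summed to 1285 to 1443 CPM in WT and 1714 to 2053 CPM in KO, with 6 higher and 1 lower at that p and none at 0 in all libraries. The part of these cells in the values below was not tested, and in bulk RNA more cells of a kind and more RNA per cell cannot be told apart. Markers of osteoblasts and stroma summed to at most 34.6 CPM, with *Bglap* at 0, and those of B cells, T and NK cells, erythroid cells, mast cells and basophils, dendritic cells and endothelium each to at most 18.8 CPM. Of the mast cell and basophil genes, 3 of the 3 tested were higher in KO at an unadjusted p under 0.05, at a summed 2.03 to 3.41 CPM in WT and 5.42 to 6.84 CPM in KO.

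The stretches just before the start sites of 4 of the genes are shown, those of the members with the largest differences that had an entry (*Acp5*, *Snx10* and *Plekhm1*) and that of *Clcn7*, the only one with an E-box. Sequences are from RefSeq on GRCm38.p6, a different build from the GRCm39 named in the submitters' processing notes. Of the 10 genes, 8 had a promoter entry, with 17 start sites in all, and *Car2* and *Syt7* had none. Each run is 150 bases long, 5′ to 3′ on the gene's strand, and ends before the gene's own exons in GENCODE M21. Capitals mark the letters of the motifs searched on both strands. The run of *Acp5* is chr9:22130609-22130758 on the minus strand, that of *Snx10* chr6:51523751-51523900 on the plus strand, that of *Plekhm1* chr11:103412706-103412855 on the minus strand and that of *Clcn7* chr17:25133241-25133390 on the plus strand.
Acp5: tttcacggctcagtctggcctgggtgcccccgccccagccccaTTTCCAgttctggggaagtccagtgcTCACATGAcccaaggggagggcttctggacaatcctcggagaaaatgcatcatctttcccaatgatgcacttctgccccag
Snx10: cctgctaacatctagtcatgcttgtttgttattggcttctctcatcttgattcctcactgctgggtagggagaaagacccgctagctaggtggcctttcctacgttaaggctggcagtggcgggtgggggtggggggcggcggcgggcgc
Plekhm1: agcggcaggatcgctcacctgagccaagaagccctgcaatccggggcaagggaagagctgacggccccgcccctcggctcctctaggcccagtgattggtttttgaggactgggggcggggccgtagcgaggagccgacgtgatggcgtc
Clcn7: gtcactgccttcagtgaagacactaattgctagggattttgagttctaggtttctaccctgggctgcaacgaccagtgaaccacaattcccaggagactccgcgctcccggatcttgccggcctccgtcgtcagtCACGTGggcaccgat

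The motifs were counted over 300-base windows, from 250 bases before to 50 bases after each start, in 32851 mouse promoters. In *Acp5* the M-box TCACATGA, letters known to be bound by MITF and related factors in osteoclasts, began 91 bases before the start, and 0.986% of all promoters held it. In *Clcn7* the E-box CACGTG began 15 bases before the start and again at base 8 after it, where it lay inside the extended E-box TCACGTGA. The E-box was held by 7.15% of all promoters and the extended form, which contains it, by 0.974%. The AP-1 letters TGACTCA or TGAGTCA were found 98 bases before another start of *Snx10* and in 5.20% of all promoters. The NFAT letters TGGAAA were found for *Acp5*, *Clcn7* and *Snx10*, and in 21.4% of all promoters. Of the rest, GAGGAAG, the PU.1 letters, was found for *Tcirg1* (13.6% of all promoters) and TATAAA for *Rab7* (13.6%). None of these letters stood in the windows of *Ostm1*, *Plekhm1* or *Slc4a2*. These matches are a description and say nothing about binding.

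None of the 9 genes tested was past both limits in edgeR's quasi-likelihood test, which were a fold change of more than 1.3 (0.38 on the log2 scale) and an adjusted p-value that stays below 0.01. Over all genes 0.00745% were, which is 1 gene, *Dtx3l*, named here after its values were seen. At an unadjusted p under 0.05, 3 of the 9 were higher in KO (*Acp5*, *Car2* and *Snx10*), where 13.0% of all genes were, and 1 was lower (*Plekhm1*), where 13.2% were. The adjusted p-value of these 4 genes lay between 0.136 and 0.147. All 3 KO libraries lay above all WT libraries for 4 genes (*Acp5*, *Car2*, *Snx10* and *Ostm1*; 16.9% of all genes) and below them for *Plekhm1* (18.8%). With 3 libraries on each side the smallest p-value of an exact permutation test is 0.1, so none is given.

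With the GC correction the same 3 genes were higher (12.3% of all genes) and *Plekhm1* was lower (14.3%) at an unadjusted p under 0.05 in edgeR's test, and none was past both limits.

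**Figure D1:**
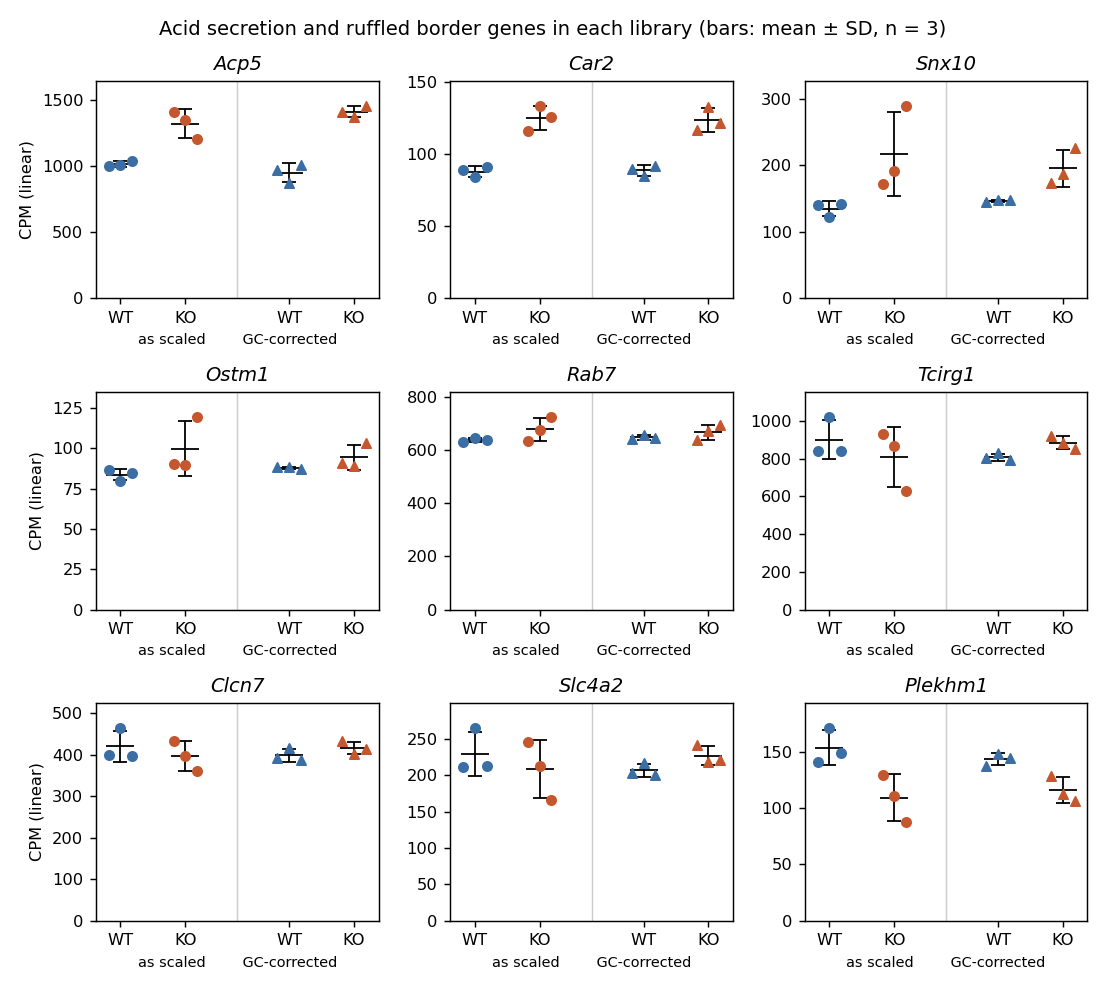
Level of each of the 9 genes tested (CPM, linear axis from 0) in the 3 WT (blue) and 3 KO (orange) libraries, as scaled by TMM (circles) and after the GC correction (triangles), with black bars at the mean ± SD. The KO points of *Acp5* and *Car2* lie above all WT points on both scales, while the order of the genotypes in *Tcirg1*, *Slc4a2* and *Clcn7* turns with the correction.

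*Acp5* encodes tartrate-resistant acid phosphatase (TRAP), the enzyme whose stain is used to count osteoclasts. Its level was 998, 1005 and 1039 CPM in WT replicates 1, 2 and 3 and 1410.2, 1348 and 1200.5 CPM in KO. Every KO library was above every WT library, and KO replicate 3 was the lowest of its genotype. The means were 1014 ± 22.1 CPM in WT and 1319.7 ± 108 CPM in KO (SD, n = 3). This is a log2 fold change of 0.38 (SE 0.10, 95% interval 0.15 to 0.61), with an adjusted p-value of 0.147 in edgeR. The transcript has 55.9% GC, a range in which most genes had negative fold changes. After the GC correction the level was 972, 872 and 1006 CPM in WT and 1404, 1369 and 1452 CPM in KO. The corrected log2 fold change was 0.57 (SE 0.08, 95% interval 0.39 to 0.74), with an adjusted p-value of 0.0209, and 0.529% of all genes were higher with a corrected adjusted p-value under 0.05. Without WT replicate 2 the corrected value was 0.51 (adjusted p-value 0.0785), and without KO replicate 3 it was 0.55 (adjusted p-value 0.0292). Leaving out any WT library or KO replicate 2 took the corrected adjusted p-value of *Acp5* above 0.05, up to 0.107, while the corrected log2 fold change stayed between 0.51 and 0.61.

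The family of acid phosphatases gives the context of *Acp5*. Per kilobase of transcript *Acp5* stood at 701 CPM in WT, while *Acp2*, the lysosomal acid phosphatase, stood at 38.6 CPM. Of the 8 symbols listed for this family, 6 were in the table and 4 were tested, and *Acp1* alone had an unadjusted p under 0.05 in edgeR's test. Its log2 fold change was 0.30 (SE 0.11, adjusted p-value 0.153) and became 0.07 after the GC correction. The median over the 4 was 0.12, beside 0.01 for all genes tested.

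Carbonic anhydrase 2, encoded by *Car2*, supplies the protons that are pumped and the bicarbonate that leaves the cell. The level of *Car2* was 88.8, 83.9 and 91.1 CPM in WT replicates 1, 2 and 3, and 116, 133 and 125 CPM in KO. The genotypes did not overlap, and the closest pair was WT replicate 3 and KO replicate 1. The means were 87.9 ± 3.68 CPM in WT and 125 ± 8.56 CPM in KO (SD, n = 3). The log2 fold change was 0.51 (SE 0.09, 95% interval 0.30 to 0.72), with an adjusted p-value of 0.136 in edgeR, and by its unadjusted p-value *Car2* ranked 40 among all genes tested. With 49.1% GC the transcript sits close to the middle of the range, and the corrected log2 fold change was 0.48 (SE 0.07, 95% interval 0.32 to 0.64) with an adjusted p-value of 0.0268. Leaving out each library in turn gave corrected values of 0.42 to 0.52, and the adjusted p-value was 0.00946, past both limits, without KO replicate 1, and between 0.113 and 0.128 without any one WT library or KO replicate 2. In DESeq2's Wald test *Car2* alone of the 9 genes was past both limits, with an adjusted p-value of 0.000505, where 0.521% of all genes were past them and higher. With the GC correction in DESeq2, *Acp5* (adjusted p-value 3.1e-09), *Car2* (2.9e-05) and *Snx10* (0.0025) were past both limits, where 1.64% of all genes were past them and higher.

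Among other genes of ion and bicarbonate supply, 25 of 41 listed were tested. At an unadjusted p under 0.05 in edgeR's test 1 was higher (13.0% of all genes) and 2 were lower (13.2%), and the median log2 fold change was 0.05 (-0.02 after the GC correction), near that of all genes (0.01 and -0.01). *Slc9b2*, a sodium-proton exchanger that is induced in osteoclasts, was at 61.9, 60.2 and 72.9 CPM in WT and 92.2, 93.9 and 99.0 CPM in KO. Its log2 fold change was 0.55 (SE 0.10, adjusted p-value 0.136), and 0.36 after the correction. *Slc9a9*, an endosomal relative, had a log2 fold change of -0.24 (SE 0.10, adjusted p-value 0.180), and -0.32 after the correction. With the GC correction 3 were higher and 3 lower at that p (12.3% and 14.3% of all genes). Without KO replicate 1 the uncorrected counts were 4 and 2 (16.5% and 16.7%), and without WT replicate 2 they were 1 and 0 (5.61% and 5.60%). DESeq2's Wald test put *Slc9b2* past both limits (adjusted p-value 0.000935), where 0.521% of all genes were past them and higher. With the GC correction in DESeq2 its log2 fold change was 0.36 (adjusted p-value 0.00966), under the fold limit, and 0 genes of this list were past both limits. Of the other catalytically active cytosolic carbonic anhydrases, *Car7* and *Car13* were tested. *Car7* was at 1.04 CPM in WT and 1.01 CPM in KO, and *Car13* at 33.2 CPM in WT and 38.4 CPM in KO with a log2 fold change of 0.21 (adjusted p-value 0.260; -0.04 after the correction), while *Car1* had no count and *Car3* had 2 counts over all 6 libraries.

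*Slc4a2* encodes the exchanger that lets bicarbonate out and chloride in on the membrane that faces away from bone. Its level was 212, 264 and 212 CPM in WT and 245, 213 and 166 CPM in KO, and the genotypes overlapped. WT replicate 2 was the highest and KO replicate 3 the lowest library. The log2 fold change of *Slc4a2* was -0.14 (SE 0.15, adjusted p-value 0.566), and ran from -0.27 to -0.0018 when each library was left out in turn. After the GC correction the levels were 203, 217 and 201 CPM in WT and 242, 218 and 221 CPM in KO, and the log2 fold change was 0.13 (SE 0.07, 95% interval -0.02 to 0.28), so that the direction turned. The exons of *Slc4a2* share 1141 bases with those of *Fastk* on the opposite strand in GENCODE M21. The estimated counts of both genes summed to a whole number in every library, from 4083 in KO replicate 3 to 6157 in WT replicate 2, as when reads are divided between them, and the sources used here do not state whether counting used strand. *Slc4a3* of the same family was at 2.87 CPM in WT and 3.19 CPM in KO, and *Slc4a1* had no count.

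*Tcirg1* encodes the a3 subunit, which brings the proton pump (the V-ATPase) to the ruffled border. Its level was 840, 1019 and 841 CPM in WT replicates 1, 2 and 3 and 931, 865 and 629 CPM in KO. The highest library was WT replicate 2 and the lowest KO replicate 3, with the other 4 between 840 and 931 CPM. The means were 900.1 ± 103 CPM in WT and 808 ± 159 CPM in KO (SD, n = 3), with a log2 fold change of -0.16 (SE 0.16, 95% interval -0.51 to 0.20) and an adjusted p-value of 0.534 in edgeR. Without KO replicate 3 the log2 fold change was -0.0029. With 58.6% GC this is the most GC-rich transcript of the 9. After the correction the level was 801, 829 and 794 CPM in WT and 919, 885 and 850.4 CPM in KO, which do not overlap, and the log2 fold change turned to 0.13 (SE 0.07, 95% interval -0.02 to 0.28, adjusted p-value 0.232). Corrected non-overlap towards KO was seen for 6 of the 9 genes, the 4 named above with *Tcirg1* and *Slc4a2*, and for 15.0% of all genes. Over the 6 libraries the genes whose log2 CPM was most like that of *Tcirg1* were *Adgre5*, *Gmppa* and *Dgkq* (Pearson's r of 0.999, 0.998 and 0.996), and those most like *Acp5* were *Arpin*, *Sdha* and *4930434J08Rik* (0.994, 0.993 and 0.990). These are the highest of 13428 values over 6 points that share the GC trend of their libraries.

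The subunits of the pump, *Tcirg1* among them, were read as a list, and no difference between *Tcirg1* and another subunit was tested. Of 25 V-ATPase genes listed, 19 were tested, and 5 of the other 6 had no count, the alternative a subunit *Atp6v0a4* among them. At an unadjusted p under 0.05 in edgeR's test, 9 of the 19 were higher in KO (13.0% of all genes) and 1 was lower (13.2%), with 0 past both limits (2 in DESeq2, 0 in limma-voom). The median log2 fold change was 0.20, before and after the GC correction, beside 0.01 and -0.01 for all genes, and without *Tcirg1* it was 0.24 and 0.21. With the correction 10 were higher (12.3% of all genes) and 1 was lower (14.3%). The count of higher subunits was 6 without WT replicate 2, where 5.61% of all genes were higher, and 11 without KO replicate 3, where 8.97% were. With the correction these counts were 10 and 13, beside 8.12% and 9.92% of all genes.

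*Atp6v0d2*, the d2 subunit that is induced in osteoclasts and serves cell fusion as well as the pump, was at 228, 177 and 223 CPM in WT and 339, 353 and 461 CPM in KO. The lowest KO library was above the highest WT library. Its log2 fold change was 0.88 (SE 0.15, adjusted p-value 0.136). After the GC correction it was 0.62 with an adjusted p-value of 0.00915, past both limits, where 0.0447% of all genes were. No subunit was past them when the corrected fit left out any library but KO replicate 1, used the longest transcript of any class, or had the replicate block. *Atp6v1d*, a subunit of the stalk that turns inside the pump, was at most at 160.5 CPM in a WT library and at least at 197 CPM in a KO library, with a log2 fold change of 0.64 (SE 0.14, adjusted p-value 0.147) and a corrected value of 0.42 (adjusted p-value 0.0372). *Atp6v0a1*, a paralog of *Tcirg1* that directs the pump to other membranes, was at 203, 256 and 203 CPM in WT and 174, 159.7 and 143 CPM in KO. Every KO library was below every WT library, and its log2 fold change was -0.48 (SE 0.12, adjusted p-value 0.147) or -0.36 after the correction (adjusted p-value 0.0591). The third a subunit, *Atp6v0a2*, had a log2 fold change of -0.14 (SE 0.09, adjusted p-value 0.341). Per kilobase in WT, *Tcirg1* at 296 CPM was the most abundant of these a subunits, followed by *Atp6v0a1* at 55.1 CPM and *Atp6v0a2* at 12.1 CPM.

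**Figure D2:**
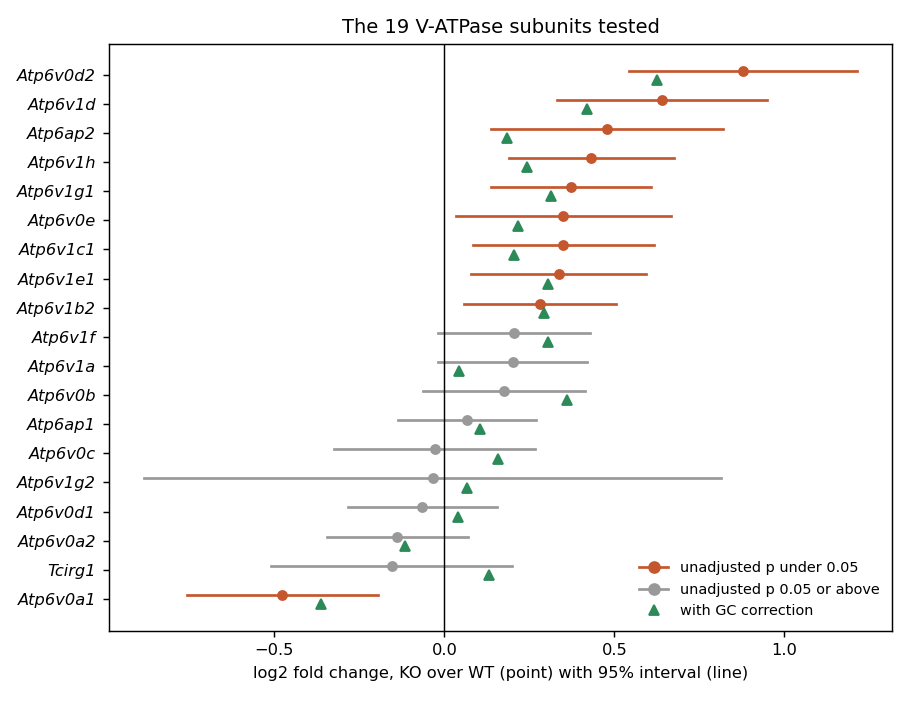
Log2 fold change of KO over WT (horizontal axis) for the 19 V-ATPase genes tested, with circles and 95% intervals from edgeR, orange where the unadjusted p is under 0.05 and gray otherwise, and green triangles for the GC-corrected value. *Atp6v0d2* is at the top with 0.88, *Atp6v0a1* at the bottom with -0.48, and *Tcirg1* is next to the bottom with -0.16, its triangle on the other side of 0.

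The chloride transporter of the ruffled border is made of *Clcn7*, which exchanges chloride for protons, and *Ostm1*, the subunit that keeps it stable. The level of *Clcn7* was 401, 464 and 396 CPM in WT and 433, 396 and 361 CPM in KO, and the genotypes overlapped. The log2 fold change was -0.08 (SE 0.11, 95% interval -0.33 to 0.16, adjusted p-value 0.636) and turned to 0.06 (SE 0.06, 95% interval -0.08 to 0.20) after the correction. With each library left out in turn it ran from -0.15 to -0.0069, and from 0.039 to 0.095 with the correction. *Ostm1* was at 86.4, 79.8 and 84.8 CPM in WT and 90.2, 89.9 and 119 CPM in KO. KO replicates 1 and 2 lay just above WT, and KO replicate 3 stood apart. The log2 fold change was 0.25 (SE 0.13, 95% interval -0.03 to 0.54, adjusted p-value 0.223), and 0.11 without KO replicate 3. After the correction it was 0.10 (SE 0.07, adjusted p-value 0.390), and 0.03 when the correction was made without KO replicate 3. Both partners were therefore measured without a difference that passed a test, and the corrected intervals reach up to 0.20 for *Clcn7* and 0.26 for *Ostm1* on the log2 scale. Of the relatives of *Clcn7*, *Clcn3*, *Clcn4*, *Clcn5* and *Clcn6* had log2 fold changes of 0.05, -0.09, -0.14 and -0.27, and none had an unadjusted p under 0.05 in edgeR's test. After the GC correction these were -0.20, -0.17, -0.30 and -0.17, so that *Clcn3* changed sign, and *Clcn5* alone had an unadjusted p under 0.05 in edgeR (adjusted p-value 0.0655).

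Traffic to the ruffled border gave *Snx10*, whose fold change was the largest of the 9 before the GC correction and with all libraries but not after the correction or without KO replicate 3, and the only one lower in KO by the counts above, *Plekhm1*. *Snx10* encodes a sorting nexin of endosomes. Its level was 141, 122 and 141 CPM in WT replicates 1, 2 and 3, and 172, 191 and 289 CPM in KO. All KO libraries were above WT, and KO replicate 3 was far above the others. The means were 135 ± 10.9 CPM in WT and 217 ± 62.9 CPM in KO (SD, n = 3), with a log2 fold change of 0.69 (SE 0.18, 95% interval 0.27 to 1.10) and an adjusted p-value of 0.147 in edgeR. Without KO replicate 3 the log2 fold change was 0.43. The transcript has 41.6% GC, the lowest of the 9, in a range where most genes had positive fold changes. After the correction the level was 145, 147 and 147 CPM in WT and 173, 187 and 226 CPM in KO, and the log2 fold change was 0.42 (SE 0.09, 95% interval 0.21 to 0.63, adjusted p-value 0.0597). It was 0.30 when the correction was made without KO replicate 3. Its relative *Snx11* had a log2 fold change of -0.23 (SE 0.13, adjusted p-value 0.295), and -0.07 after the correction.

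*Plekhm1* encodes an adaptor that binds Rab7 on late endosomes and lysosomes. Its level was 141, 171 and 149 CPM in WT and 129.6, 111 and 87.5 CPM in KO. Every KO library was below every WT library, with WT replicate 2 the highest and KO replicate 3 the lowest. The means were 154 ± 15.3 CPM in WT and 109 ± 21.1 CPM in KO (SD, n = 3), with a log2 fold change of -0.49 (SE 0.15, 95% interval -0.83 to -0.16) and an adjusted p-value of 0.147 in edgeR. After the correction the libraries were at 138, 148 and 145 CPM in WT and 129, 113 and 106 CPM in KO, still apart (17.7% of all genes were lower without overlap), and the log2 fold change was -0.31 (SE 0.08, 95% interval -0.49 to -0.13, adjusted p-value 0.0765). *Acp5* and *Plekhm1* have nearly the same GC content, 55.9% and 56.0%, and had fold changes of opposite sign. The paralogs *Plekhm2* and *Plekhm3* had log2 fold changes of -0.51 (SE 0.15) and -0.31 (SE 0.10), with adjusted p-values of 0.147 and 0.150, and all KO libraries of both were below WT. After the correction they were -0.17 (adjusted p-value 0.138) and -0.36 (adjusted p-value 0.0765).

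*Rab7* encodes the GTPase of late endosomes to which *Plekhm1* protein binds. Its level was 631, 646 and 637 CPM in WT and 635, 673 and 723 CPM in KO, and the genotypes overlapped. The log2 fold change was 0.09 (SE 0.09, 95% interval -0.12 to 0.29, adjusted p-value 0.560), and 0.04 (95% interval -0.10 to 0.19) after the correction, so these intervals leave out a change above 1.3 times. *Rab7b*, a separate gene with a related product, had a log2 fold change of -0.23 (SE 0.08, adjusted p-value 0.159), and *Rab9* had one of 0.48 (SE 0.20, adjusted p-value 0.175). *Syt7*, a calcium sensor for the fusion of lysosomes with the cell membrane, had no library above 3 counts, or 0.150 to 0.173 CPM in these libraries, so no fold is given. This floor of 3 counts covers counting error only.

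Of 67 other trafficking genes listed, 66 were in the table and were tested. At an unadjusted p under 0.05 in edgeR's test 14 were higher and 10 were lower (13.0% and 13.2% of all genes), and 0 were past both limits in edgeR, DESeq2's Wald test and limma-voom. With the GC correction 10 were higher and 11 lower (12.3% and 14.3% of all genes). In DESeq2 with that correction 1 gene was past both limits, *Vamp8* (adjusted p-value 0.00665), named after its values were seen. Over all 11082 genes with an adjusted p-value there, 182 were past both limits and higher and 176 past them and lower. Without WT replicate 2 the uncorrected counts were 3 and 5 (5.61% and 5.60% of all genes), and without KO replicate 3 they were 6 and 8 (8.97% and 10.3%). The median log2 fold change was 0.06 (0.03 after the correction). *Rab38*, a GTPase of lysosome-related organelles, was at 11.4, 10.4 and 12.1 CPM in WT and 15.4, 15.8 and 17.0 CPM in KO, with a log2 fold change of 0.51 (SE 0.12, adjusted p-value 0.147). *Arl8b*, which carries lysosomes outward along microtubules, had one of 0.37 (SE 0.12, adjusted p-value 0.147), and 0.18 after the correction. *Rab3d*, a secretory GTPase of the osteoclast, was at 57.2, 64.1 and 54.7 CPM in WT and 45.7, 46.3 and 37.2 CPM in KO, with a log2 fold change of -0.45 (SE 0.12, adjusted p-value 0.147). Of 21 synaptotagmins and related genes, 4 were tested, and *Sytl4*, a Rab effector at under 2.2 CPM in every library, had a log2 fold change of 0.61 (SE 0.25, adjusted p-value 0.177). It was the only one of the 4 with a positive value, and their median was -0.45. After the GC correction none was higher and 1 was lower, *Syt11*, at an unadjusted p under 0.05 in edgeR's test (12.3% and 14.3% of all genes). The median was then -0.32. Of 46 symbols listed for other lysosomal enzymes and membrane proteins, 45 were in the table and all 45 were tested. At an unadjusted p under 0.05 in edgeR's test 3 were higher and 8 lower (13.0% and 13.2% of all genes), with a median of -0.10 (-0.05 after the correction). These counts were 2 and 3 without WT replicate 2 (5.61% and 5.60% of all genes), and 6 and 10 with the GC correction (12.3% and 14.3%). In DESeq2 with that correction *Arsb* alone of this list was past both limits, with a corrected log2 fold change of 0.40. Among those with the smallest p-values were *Arsb* (0.38) among the higher and *Sort1* (-0.36) and *Pla2g15* (-0.43) among the lower, all with an adjusted p-value of 0.147.

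**Figure D3:**
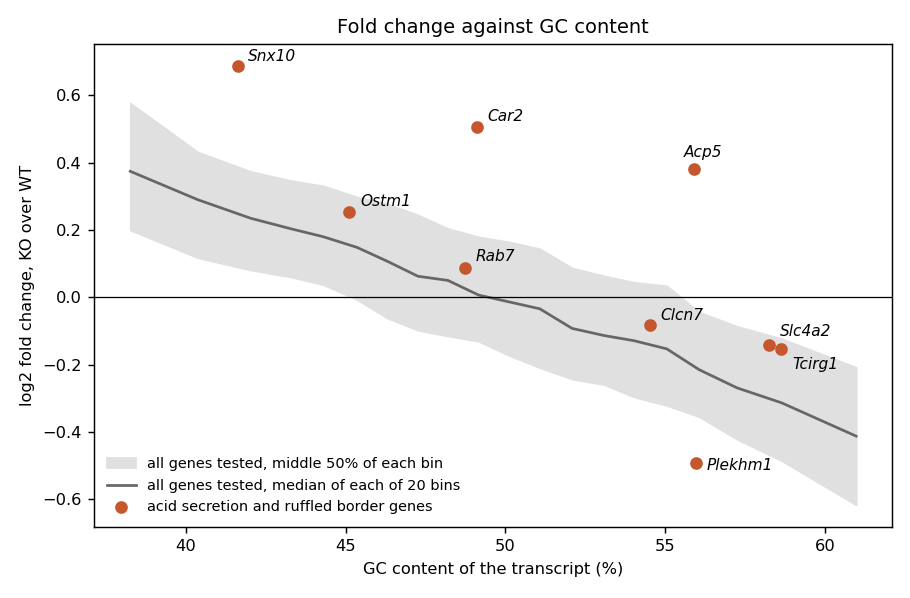
Log2 fold change of KO over WT (vertical axis) against the GC content of the transcript (horizontal axis, %), with the line and gray band for the median and the middle 50% of all genes tested in 20 bins and orange points for the 9 genes. *Ostm1*, *Rab7*, *Clcn7*, *Slc4a2* and *Tcirg1* lie inside the band, *Snx10*, *Car2* and *Acp5* above it and *Plekhm1* below it.

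KO replicate 3 was the highest library for 3 of them (*Snx10*, *Ostm1* and *Rab7*) and the lowest for 4 (*Tcirg1*, *Clcn7*, *Slc4a2* and *Plekhm1*). WT replicate 2 was the highest for those same 4 genes and the lowest for *Car2*, *Snx10* and *Ostm1*. The first set has 41.6% to 48.7% GC and the second 54.5% to 58.6%. In bins of similar GC content the median log2 fold change of all genes ran from 0.37 at 38.3% GC to -0.41 at 61.0% GC.

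**Figure D4:**
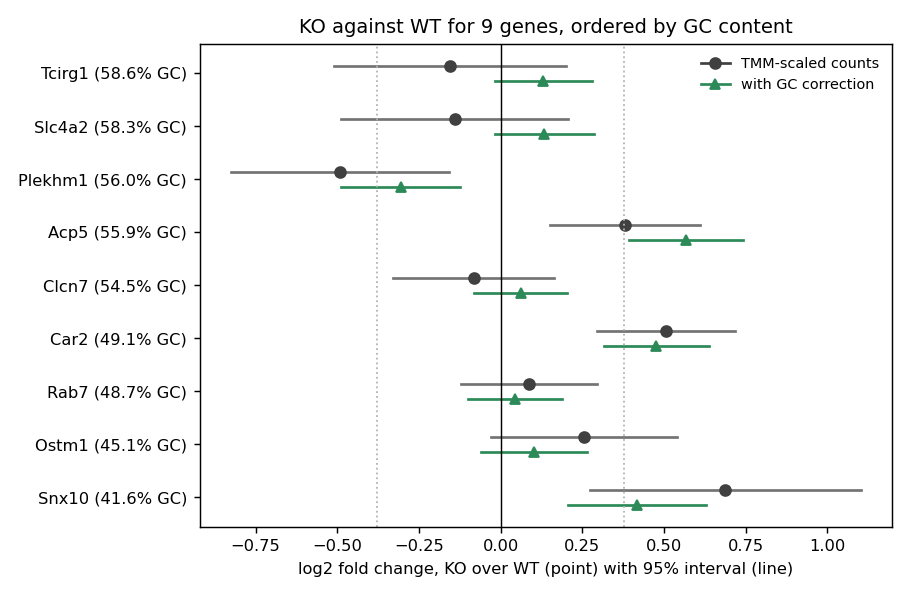
Log2 fold change of KO over WT with its 95% interval for the 9 genes, ordered from the most GC-rich at the top, from TMM-scaled counts (black circles) and with the GC correction (green triangles), and dotted lines at a fold change of 1.3. The corrected intervals of *Acp5*, *Car2* and *Snx10* lie above 0 and that of *Plekhm1* below 0, and the other 5 include 0.

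In length-scaled levels in WT the order was *Acp5* at 701 ± 15.3 CPM per kilobase, *Tcirg1* at 296 ± 34.0 and *Rab7* at 296 ± 3.51, *Clcn7* at 99.2 ± 8.93, *Snx10* at 54.4 ± 4.38, *Slc4a2* at 53.8 ± 7.10 and *Car2* at 49.2 ± 2.06, and then *Ostm1* at 27.8 ± 1.14 and *Plekhm1* at 25.8 ± 2.56 (SD, n = 3). The neighbours *Tcirg1* and *Rab7*, *Snx10*, *Slc4a2* and *Car2*, and *Ostm1* and *Plekhm1* were within their spread of each other. In KO the levels per kilobase were 912 ± 74.5 for *Acp5*, 87.5 ± 25.3 for *Snx10*, 69.9 ± 4.79 for *Car2* and 18.3 ± 3.53 for *Plekhm1*. The length is that of the longest protein-coding transcript in GENCODE M21, and which transcripts these cells use was not measured here.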

How the data were processed

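RNA-seq of 3 WT and 3 KO OCP libraries (stranded mRNA kit) was analysed, grouped by the genotype in the labels. The authors deposited 1 table of estimated counts per gene, not normalized and partly not whole. The submitters' processing notes list fastp, HISAT2, StringTie and RSEM, with no version, and GRCm39. The methods name no test for the transcriptome. The 2 columns of the authors' means per genotype were not used.

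Counts were rounded and compared in R 4.3.3 with edgeR 4.0.16 (filterByExpr, TMM, glmQLFit with legacy = FALSE, glmQLFTest), adjusted by Benjamini-Hochberg over 13428 genes. The limits were an adjusted p under 0.01 and a fold change above 1.3. The GC correction fits each library's deviations with a natural spline (5 degrees of freedom) on the GC content of the longest protein-coding transcript in GENCODE M21 (GRCm38, not the build of the counts) and enters as offsets. Levels are CPM. DESeq2 1.42.0 and limma 3.58.1 gave alternatives. Depth was 17757351 to 19998611 counts per library, and 3 counts were taken as the floor. On simulated counts in which 200 of 13428 genes differed by a log2 value of 1, edgeR recovered 66.5% and called 1 other gene. The simulated counts held no GC trend, and the largest value among the 9 genes was 0.69 (*Snx10*). The recovery is therefore not a measure of what could be found for these genes. Libraries were compared pairwise for duplicates, and no chi-square per degree of freedom was under 3.58, above sampling noise. KO replicate 1 stood at 8.61, 31.7 and 8.30 with WT replicates 1, 2 and 3. With KO replicates 2 and 3 it stood at 35.8 and 51.9, so the libraries did not sort by genotype alone.

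The members, the gene lists, the motifs and the rule for named genes (all members, their listed paralogs, and up to 2 genes per list and direction with the smallest p-values, some of which are not reported here) were chosen with earlier results of these data known. The label field for batch gives each library a value of its own, so no shared batch could be examined. Proteome and animal experiments were not analysed here.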

Additional observations from a re-analysis of the deposited data

How the results depend on the processing

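The number of members past the limits was 0 in edgeR's main test and in all alternatives but 3. It was 1 (*Car2*) with the GC correction without KO replicate 1, 1 (*Car2*) with DESeq2's Wald test and 3 with DESeq2 and the GC correction. With the replicate block 0 members were past the limits, and no call at the limits changed. At an unadjusted p under 0.05 in that edgeR fit 3 members were higher and 1 lower, beside 1695 and 1866 of all 13428 genes. With the block and the GC correction the adjusted p-values of *Acp5* and *Car2* were 0.0731 and 0.0870, against 0.0209 and 0.0268 without the block. The labels do not say whether same-numbered libraries belong together. The r of same-numbered deviations was -0.22, 0.08 and 0.17. This cannot decide the question, because the deviations also follow each library's GC trend. Leaving out 1 library without the GC correction gave 0 members past the limits and 3 to 4 higher at an unadjusted p under 0.05. The count was 4 without KO replicate 1, where 16.5% of all genes were higher. It was 3 without WT replicate 2, where 5.61% were. The log2 fold changes of *Tcirg1*, *Clcn7* and *Slc4a2* turned from negative to positive: in this order they were 0.13, 0.062 and 0.13 with the GC correction, with DESeq2 and that correction, and with the replicate block and that correction, and 0.14, 0.074 and 0.14 with the GC content of the longest transcript of any class. This last setting, the corrected fits without a library and the list counts in other settings were chosen after seeing the data. No other direction among the 9 genes turned. Non-overlapping members higher in KO numbered 4, and 5 with library size alone and 6 after the GC correction. Over all genes the calls, higher and lower, were 0 and 1, against 54 and 72 in DESeq2, 2 and 4 with the GC correction, 182 and 176 with both, and 0 to 2 in total without 1 library. With the GC correction and without KO replicate 1 they were 20 and 111. Genes at an unadjusted p under 0.05 fell to 769 higher and 767 lower without WT replicate 2. *Syt7* lay at the count floor, and whether this reflects depth or absent expression was not tested.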
